A study of Mus musculus with 20 samples.

Results

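Brush border enzymes and alkaline phosphatases of the mouse cecum were examined as a set of 10 genes. These were the alkaline phosphatases Alpi, Akp3, Alpl, and Alppl2, the peptidases Anpep, Dpp4, Mep1a, and Mep1b, the disaccharidase Sis, and the microvillus protein Vil1. They were chosen by name, as listed enzymes and a structural protein of the brush border, with earlier results of these data known. Their counts beside the shares of all tested genes are therefore a description. All 10 were found among the 19887 genes of the cecum count table by matching Ensembl identifiers to GENCODE symbols. Of the 10, 9 passed the filter on low counts and were tested, as did 15348 genes in all, and Akp3 did not pass it.

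RNA from sections of the cecum of 20 C57BL/6 mice was measured by RNASeq, with 5 mice on each of 4 diets. All mice were placed on the Total Western Diet (TWD, a rodent diet that copies the nutrient intake of Americans) at 3 weeks of age and ate it for 6 weeks. They then ate the TWD with 0, 2, 5, or 10% raw potato starch (RPS, a source of resistant starch) for 3 weeks. No other treatment or allele is named, and the mice of each diet are numbered here from 1 to 5. Total counts ranged from 14967798 to 42687283 per mouse, and no pair of mice on the same diet had counts as alike as 1 library counted again would give. The tissue was the cecal wall as a whole, so that fewer cells of a type and less RNA per cell cannot be told apart in any value below.

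The brush border is the carpet of microvilli on the luminal face of absorptive epithelial cells. Its enzymes sit in the membrane with their active sites toward the gut contents, where they split the last bonds of peptides and sugars. Intestinal alkaline phosphatases hang from the same membrane by a GPI anchor and remove phosphate from nucleotides and from bacterial lipopolysaccharide (LPS). These activities are highest in the small intestine, whereas the cecum is a site of microbial fermentation with a lining closer to that of the colon.

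The labelled tissue was first compared with marker genes. Car1, a carbonic anhydrase of large intestine absorptive cells, averaged 25141 CPM with 0% RPS (counts scaled to library size by TMM), and Slc26a3 and Aqp8, the chloride exchanger and a water channel of the same cells, averaged 1202 and 2026 CPM. Markers of small intestine enterocytes were mixed. Fabp2 (1651 CPM), Slc5a1 (82.4 CPM), and the ileal bile acid transporter Slc10a2 (66.2 CPM) were present, whereas Fabp6 averaged 1.12, Apoa1 0.903, and Lct 0.159 CPM. The 8 Paneth cell markers were mixed too: the 5 defensins had at most 3 counts in any mouse and Mmp7 at most 4. In contrast, Lyz1, the lysozyme of Paneth cells, had 44 to 553 counts and Itln1, an intelectin, 5 to 127. Lyz1 ranged from 1.26 to 17.4 CPM with 0% and from 3.9 to 25.1 CPM with 10% RPS, a difference that did not pass the threshold used below (log2 fold change 1.64, SE 0.72, adjusted p = 0.226, edgeR).

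The phosphatase genes Alppl2, Alpi, and Akp3 lie side by side on chromosome 1 of GRCm39. The first (ENSMUSG00000026246, chr1:87014416-87017650) and the second (ENSMUSG00000079440, chr1:87025724-87029328) are on the minus strand and are separated by 8073 bases. Akp3 (ENSMUSG00000036500, chr1:87052695-87055634) follows 23366 bases further on the plus strand. Their coding sequences are related: Alpi was identical to Akp3 at 81.5% and to Alppl2 at 81.6% of aligned bases, and Akp3 to Alppl2 at 78.7%, against 66.0% for Alpi and Alpl. The longest run shared between Alpi and Akp3 was 68 bases, longer than a sequencing read of 50 bases, and it is shown because reads from it cannot be assigned to one gene by sequence. It lies in exon 2 of both genes, at chr1:87028991-87029058 (minus strand) in Alpi and chr1:87052924-87052991 (plus strand) in Akp3.
Alpi and Akp3, shared coding run: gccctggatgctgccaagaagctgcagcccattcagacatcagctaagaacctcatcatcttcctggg

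Windows of 50 bases that occur in another annotated transcript on the same strand made up 2.4% of the Alpi transcript (55 of 2288), 2.15% of Akp3, and 0.147% of Alppl2, and none of the transcripts of the other 7 genes. How reads that fit several genes were counted is not given in the sources used here. With 0% RPS Alpi had a mean of 2856 counts per mouse, whereas its neighbours had 45 (Alppl2) and 14 counts (Akp3) in those 5 mice together.

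The 250 bases before the start of transcription of Alpi and of Alppl2 are shown next, because these neighbours were the phosphatases whose slope over the 4 diets had an adjusted p under 0.05, as given below. Capitals mark matches to 7 motifs that were searched on both strands, namely the letters TTTATG for CDX factors, CAAAGTCCA for HNF4 with its first part CAAAGTC as another motif, the letters AGATAAG for GATA factors, the letters CACACCC for KLF factors, TATAAA for the TATA box, and the HNF1 motif. The first sequence is chr1:87029329-87029578 and the second chr1:87017634-87017883, both on the minus strand of GRCm39 and printed 5′ to 3′.
Alpi: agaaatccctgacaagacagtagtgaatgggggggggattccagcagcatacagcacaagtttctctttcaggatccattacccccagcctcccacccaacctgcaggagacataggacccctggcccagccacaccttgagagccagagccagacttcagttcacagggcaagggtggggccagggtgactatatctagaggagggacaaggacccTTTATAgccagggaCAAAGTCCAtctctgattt
Alppl2: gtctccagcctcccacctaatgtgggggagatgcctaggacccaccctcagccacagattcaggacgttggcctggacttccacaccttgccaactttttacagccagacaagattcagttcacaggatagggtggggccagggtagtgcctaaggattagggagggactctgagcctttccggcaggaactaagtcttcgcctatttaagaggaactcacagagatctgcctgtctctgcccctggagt

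The Alpi window held the HNF4 letters 19 bases before the start, which 0.391% of the windows of 15337 tested genes also held (3.55% for the first part alone), and TATAAA on the opposite strand 33 bases before it (8.27% of windows). The Alppl2 window held none of these letters, which says only that they do not occur in it. Aligned to each other, both windows were identical at 67.5% of 206 bases, compared with 72.1% for Akp3 and Alppl2, 46.9% for Alpi and Akp3, and 49.6% for Alpi and Mep1a, which are not neighbours. A match is a string of letters and not a site.

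**Figure D1:**
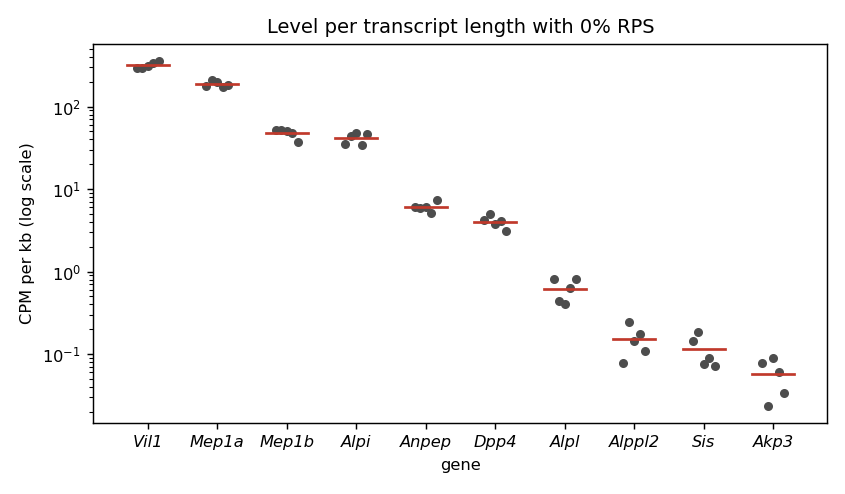
Level of each gene per transcript length with 0% RPS, as CPM per kb of the canonical transcript on a log axis, with 1 point per mouse and a line at the mean of 5 mice. Vil1 and Mep1a stood highest, Alpi and Mep1b shared the same range, and Alppl2, Sis, and Akp3 lay at the bottom.

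Levels were compared between genes per kb of the canonical transcript, in mice fed 0% RPS (mean ± SD, n = 5 mice here and below). Vil1, which encodes the actin-bundling protein villin of the microvillus core, was highest at 320.3 ± 26.9 CPM per kb. Mep1a, which encodes the alpha subunit of the metalloprotease meprin, followed at 188 ± 16.3 CPM per kb. Mep1b, which encodes the membrane-bound beta subunit, and Alpi, which encodes intestinal alkaline phosphatase, had overlapping levels of 48.0 ± 6.13 and 41.6 ± 6.5 CPM per kb, and their order was reversed when the length of all annotated exons was used. Anpep (aminopeptidase N) at 6.09 ± 0.771 CPM per kb and Dpp4 (dipeptidyl peptidase 4) at 4.03 ± 0.689 CPM per kb did not overlap. Alpl, the tissue-nonspecific phosphatase of bone and liver, was lower again at 0.619 ± 0.197 CPM per kb. The last 3 genes, Alppl2 (0.151 ± 0.0653), Sis (0.113 ± 0.0498), and Akp3 (0.0569 ± 0.0279 CPM per kb), each overlapped with the next. The range from Vil1 to Akp3 thus held abundant transcripts beside genes read from a handful of counts.

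To see how RPS altered these genes, each RPS diet was compared with 0% RPS. Alpi was downregulated and Mep1b was upregulated with 10% RPS. These were the 2 of 9 tested genes that passed the threshold (an edgeR quasi-likelihood test with a Benjamini-Hochberg adjusted p no higher than 0.05 over all tested genes and a change of 1.5-fold or more in either direction), which 1.04% of all tested genes passed. DESeq2 called the same 2 genes and 368 genes in all, against 160 by edgeR, but gave no adjusted p for Alppl2 in this comparison. At an unadjusted p under 0.05 the count was 4 of 9, against 19.5% of all tested genes, and comprised Alpi, Alppl2, and Anpep (lower) and Mep1b (higher). With 5% RPS no gene of the 9 passed by edgeR (0 genes, background 0.195%) or by DESeq2 (0 genes, of 241 it called in all), and 4 had an unadjusted p under 0.05 (background 13.3%), namely Alpi and Alppl2 (lower) and Mep1a and Mep1b (higher). With 2% RPS the count was again 0 by both tools (background 0.0%, with 5 genes called in all by DESeq2), and 1 gene, Sis, had an unadjusted p under 0.05 (background 5.77%). Between 10 and 5% RPS it was 0 by both tools too, and Alpl was the 1 gene with an unadjusted p under 0.05 (background 2.79%). The comparisons with 0% RPS share the same control mice.

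**Figure D2:**
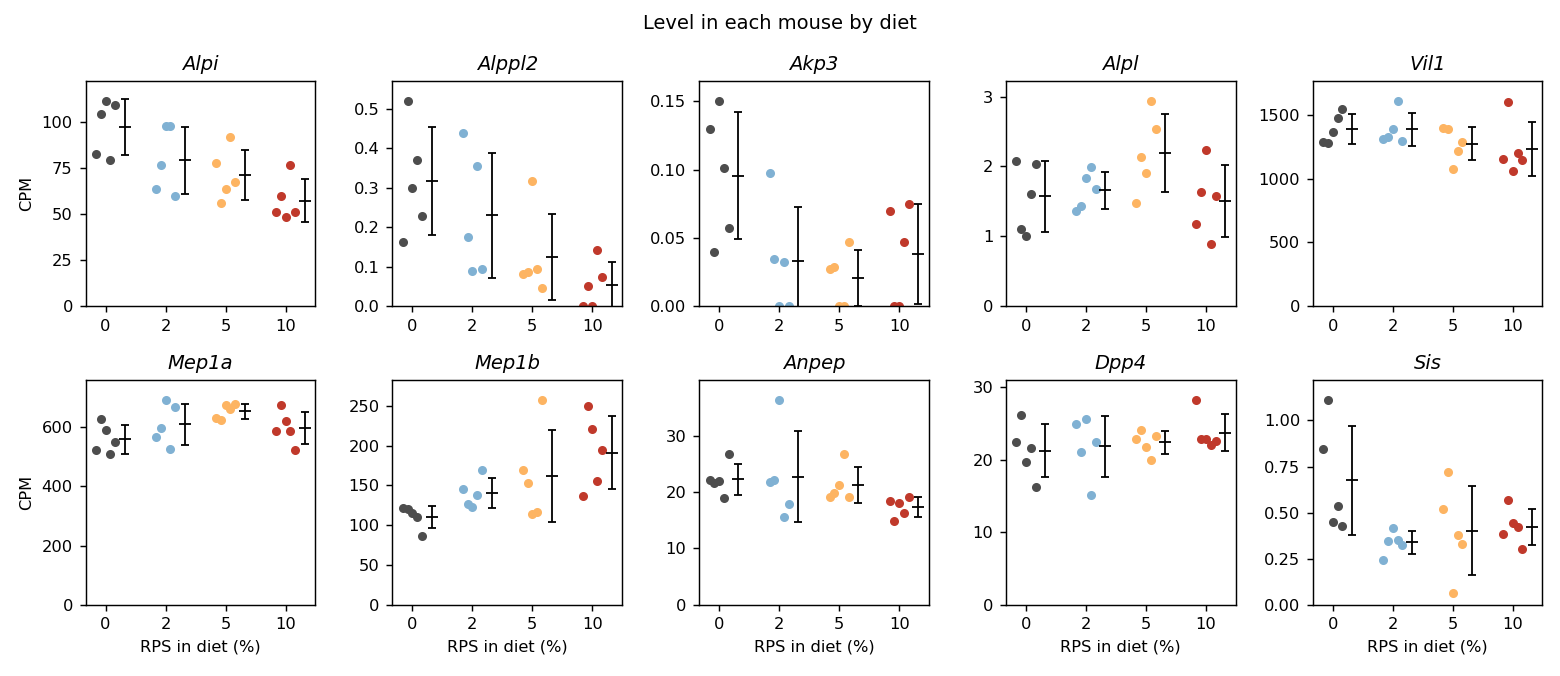
Level of each of the 10 genes in CPM (vertical axes, each from 0) against the percentage of RPS in the diet, with 1 point per mouse and a bar at the mean ± SD of 5 mice. Alpi stepped down and Mep1b up over the 4 diets, and Alppl2 fell toward 0 counts, whereas Mep1a, Dpp4, and Vil1 overlapped between all diets. The overlap rested on 1 mouse for Mep1a with 0 and 5% RPS and for Vil1 with 0 and 10% RPS.

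Alpi encodes the intestinal alkaline phosphatase. In mice 1 to 5 fed 0% RPS its level was 82.4, 104, 111, 79.3, and 109 CPM, and in those fed 2% RPS 63.8, 76.5, 97.9, 97.7, and 59.5 CPM. With 5% RPS it was 77.4, 56.0, 63.7, 91.5, and 67.5 CPM, and with 10% RPS 50.8, 59.5, 48.2, 76.8, and 51.0 CPM. Every mouse fed 10% RPS was thus below every mouse fed 0% RPS, as for 3.2% of tested genes, with mouse 4 on 10% RPS closest to the controls, while the middle diets overlapped with both ends. The means were 97.2 ± 15.2, 79.1 ± 18.2, 71.2 ± 13.7, and 57.2 ± 11.7 CPM, lower at each step, as for 11.0% of tested genes. With 10% RPS Alpi was 1.7-fold lower than with 0% RPS (log2 fold change -0.76, SE 0.17, adjusted p = 0.0275, edgeR), and the exact two-sided permutation test over mice gave p = 0.00794, the smallest that 5 mice against 5 allow. At 5% RPS Alpi had a log2 fold change of -0.45 (SE 0.16, adjusted p = 0.214), and at 2% RPS one of -0.30 (SE 0.16, adjusted p = 0.892). The difference between 10 and 5% RPS was -0.32 (SE 0.17, adjusted p = 1.0). Over all 4 diets the log2 level fell by 0.072 per percent of RPS (SE 0.015, adjusted p = 0.0333), a slope test that 1.11% of tested genes passed.

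The call of Alpi with 10% RPS was close to its threshold. Without mouse 3 or 5 on 0% RPS, or mouse 1, 2, 3, or 5 on 10% RPS, its adjusted p was between 0.0525 and 0.101, and with the other 4 mice left out in turn it was between 0.0088 and 0.0478, while the log2 fold change stayed between -0.89 and -0.71. Its slope lost its call in 8 of 20 fits that left out 1 mouse (adjusted p of 0.00736 to 0.112).

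Alppl2, the mouse relative of the germ cell and placental-like phosphatases, was read from few counts. Mice 1 to 5 had 5, 13, 8, 11, and 8 counts with 0% RPS and 9, 5, 3, 11, and 4 with 2% RPS. With 5% RPS the counts were 3, 3, 5, 3, and 1, and with 10% RPS they were 0, 2, 0, 3, and 2. No mouse fed 10% RPS rose above a floor of 3 counts, and every mouse fed 0% RPS was above it. These diets did not overlap in CPM either, as for 3.2% of tested genes in this direction. In CPM the means were 0.316 ± 0.137, 0.23 ± 0.158, 0.125 ± 0.109, and 0.0536 ± 0.059. The log2 fold change with 10% RPS was -2.58 (SE 0.68, 95% interval -4.0 to -1.16), fitted from 45 counts against 7, and it did not pass the threshold (adjusted p = 0.0545). With 5% RPS it was -1.44 (SE 0.61, adjusted p = 0.298) and with 2% RPS -0.51 (SE 0.55, adjusted p = 0.962). With the smooth muscle markers as a covariate, chosen after seeing the data, these 3 values were -1.82, -0.51, and -0.17. The slope over the diets passed, at -0.265 per percent of RPS (SE 0.062, adjusted p = 0.0445), but did not pass without a filter on low counts. It also lost its call in 13 of 18 fits that left out 1 mouse and kept the gene (adjusted p of 0.0159 to 0.135). Of 9 such fits of the comparison with 0% RPS, 1 passed, that without mouse 4 on 10% RPS, which had the most counts of its diet (log2 fold change -3.13, adjusted p = 0.0286), and the adjusted p reached 0.162 in the others. Alppl2 met the filter on low counts with exactly the 5 mice it required, 2 of them fed 0%, 2 fed 2%, 1 fed 5%, and 0 fed 10% RPS. It was thus tested only through the diets in which its level was higher. An annotated gene on the opposite strand, Gm29371, shares 20.8% of its 50-base windows, and counting without strand would add that gene's reads.

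Akp3, the phosphatase best known from the duodenum, was below the cutoff of the low count filter in all 20 mice and was not tested. Its counts were 4, 1, 4, 3, and 2 in mice 1 to 5 fed 0% RPS and between 0 and 2 in all 15 mice on the RPS diets, with sums per diet of 14, 4, 3, and 5. Mice 1 and 3 on 0% RPS, with 4 counts, were the only mice above the floor of 3 counts, so no fold change is given.

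Alpl did not pass the threshold in any comparison. Its means were 1.57 ± 0.5, 1.66 ± 0.266, 2.2 ± 0.561, and 1.5 ± 0.51 CPM from 0 to 10% RPS, so that the level with 5% RPS was the highest of the 4, and the mice of all diets overlapped. The log2 fold change against 0% RPS was -0.06 with 10% RPS (SE 0.26, 95% interval -0.59 to 0.47, adjusted p = 0.931) and 0.48 with 5% RPS (SE 0.25, adjusted p = 0.44). With the smooth muscle markers as a covariate these values were -0.46 (adjusted p = 0.311) and -0.03 (adjusted p = 0.976). Between 10 and 5% RPS it was -0.54 (SE 0.26, adjusted p = 1.0). After the diet means were subtracted, Alpl went with the neutrophil markers (r = 0.72) and the smooth muscle markers (r = 0.61) over the 20 mice, as a description. The neutrophil genes summed to a mean of 1.52 (2% RPS) to 2.21 CPM (10% RPS) per diet, and S100a8, a defining marker, averaged 0.115 CPM with 0% RPS.

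The meprins are zinc proteases of the brush border that cleave peptides, cytokines, and, in the case of meprin beta, the mucin of the mucus layer. Mep1b (ENSMUSG00000024313, chromosome 18) was at 121, 119.7, 115, 110.2, and 86.3 CPM in mice 1 to 5 fed 0% RPS. It was at 145, 126, 123, 138, and 169 CPM with 2% RPS, at 169, 153, 114, 117, and 257 CPM with 5% RPS, and at 136, 249.9, 220.2, 156, and 194 CPM with 10% RPS. Every mouse fed 10% RPS was above every mouse fed 0% RPS (1.68% of tested genes), as was every mouse fed 2% RPS (0.417%), and mice 3 and 4 on 5% RPS stayed within the control range. The means rose at each step, from 110.3 ± 14.1 to 140.4 ± 18.5, 162 ± 58.1, and 191 ± 46.3 CPM, which 10.0% of tested genes also did. The step from 2 to 5% RPS rests on mouse 5 on 5% RPS, without which the log2 fold change of Mep1b with 5% RPS was 0.33 (adjusted p = 0.524), no higher than with 2% RPS. With 10% RPS Mep1b was 1.73-fold higher than with 0% RPS (log2 fold change 0.79, SE 0.19, adjusted p = 0.0407, edgeR, exact permutation p = 0.00794). At 5% RPS its log2 fold change was 0.55 (SE 0.19, adjusted p = 0.186), at 2% RPS it was 0.35 (SE 0.19, adjusted p = 0.892), and from 5 to 10% RPS it was 0.24 (SE 0.19, adjusted p = 1.0). The slope was 0.074 per percent of RPS (SE 0.018, adjusted p = 0.0488).

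This call was also near the threshold. The adjusted p of Mep1b stayed under 0.05 without mouse 2 on 0% RPS (0.0376) or mouse 4 on 10% RPS (0.0248), and was between 0.061 and 0.118 when any one of the other 8 mice was left out, with log2 fold changes of 0.68 to 0.9 throughout. The slope of Mep1b lost its call in 13 of 20 fits that left out 1 mouse (adjusted p of 0.0218 to 0.15).

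Mep1a, the partner subunit, did not pass the threshold. It was at 559 ± 48.2, 609 ± 68.9, 653 ± 25, and 598 ± 54 CPM from 0 to 10% RPS, and the log2 fold change with 10% RPS was 0.10 (SE 0.09, 95% interval -0.08 to 0.28, adjusted p = 0.562). With 5% RPS it was 0.22 (SE 0.09, adjusted p = 0.238). The ratio of Mep1b to Mep1a in CPM went from 0.198 ± 0.0281 with 0% RPS to 0.319 ± 0.0656 with 10% RPS, a description chosen after the values of both genes were seen. Its range was 0.157 to 0.231 with 0% RPS and 0.231 to 0.372 with 10% RPS.

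**Figure D3:**
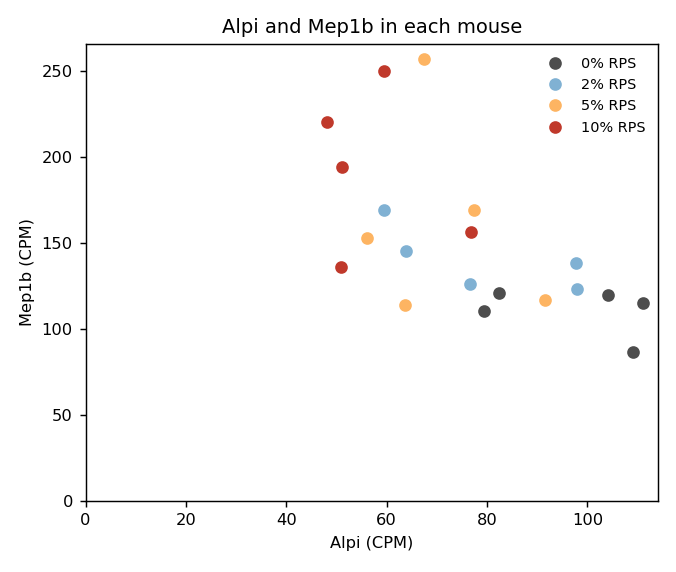
Mep1b against Alpi in CPM, 1 point per mouse, colored by diet. The 5 mice fed 10% RPS lie to the upper left of the 5 fed 0% RPS on both axes, and the mice on 2 and 5% RPS fall between and among them.

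Alpi and Mep1b, which moved in opposite directions with 10% RPS, were also set against each other within diets. The Pearson correlation of their log2 levels over the 20 mice was -0.65, and -0.30 after the diet means were subtracted. The larger value thus contains the difference between diets itself. The ratio of Mep1b to Alpi in CPM was 1.17 ± 0.274 with 0% RPS, 1.89 ± 0.66 with 2%, 2.36 ± 0.971 with 5%, and 3.46 ± 1.07 with 10% RPS, chosen after the values were seen and given with no test.

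The exopeptidases that finish peptide digestion showed no change past the threshold. Anpep, which removes single amino acids from the ends of peptides, was at 22.1, 21.6, 21.9, 18.9, and 26.7 CPM in mice 1 to 5 fed 0% RPS and at 18.4, 14.8, 18.1, 16.3, and 19.1 CPM in those fed 10% RPS. A single value of each diet overlapped with the other, namely mouse 4 on 0% RPS and mouse 5 on 10% RPS. The log2 fold change was -0.36 (SE 0.17, 95% interval -0.71 to -0.01, adjusted p = 0.248, exact permutation p = 0.0159), and the means with 2 and 5% RPS were 22.7 ± 8.08 and 21.3 ± 3.24 CPM, close to the 22.3 ± 2.82 CPM of the controls. Dpp4, which trims dipeptides from peptides and inactivates incretin hormones, averaged 21.2 ± 3.63, 21.8 ± 4.19, 22.4 ± 1.62, and 23.7 ± 2.52 CPM. Its log2 fold change with 10% RPS was 0.16 (SE 0.13, 95% interval -0.11 to 0.43, adjusted p = 0.521), which leaves room for a rise of up to 0.43 on the log2 scale.

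Sis encodes sucrase-isomaltase, which splits sucrose and the branch points of starch fragments and is a hallmark of the small intestine. It was nearly silent here, with 1 to 28 counts per mouse. The means were 0.676 ± 0.297, 0.338 ± 0.0634, 0.402 ± 0.243, and 0.423 ± 0.0975 CPM from 0 to 10% RPS. All mice fed 2% RPS (0.243 to 0.419 CPM) were below all mice fed 0% RPS (0.43 to 1.11 CPM), a pattern found in 0.671% of tested genes for that comparison, but the difference did not pass (log2 fold change -0.97, SE 0.38, adjusted p = 0.842). With 10% RPS it was -0.65 (SE 0.37, 95% interval -1.42 to 0.12, adjusted p = 0.34), and without mouse 2 on 0% RPS it was -0.40. With the small intestine or the smooth muscle markers as a covariate it was -0.28 and -0.26.

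Vil1 served as the structural reference of the microvillus. It averaged 1389.9 ± 117, 1385 ± 128, 1274 ± 133, and 1230.5 ± 211 CPM from 0 to 10% RPS. With 10% RPS mouse 2 was at 1597 CPM and the other 4 mice at 1057 to 1198 CPM, below the 1276 to 1542 CPM of the mice fed 0% RPS, so that the overlap of these diets rests on mouse 2. The log2 fold change with 10% RPS was -0.18 (SE 0.11, 95% interval -0.40 to 0.05, adjusted p = 0.377), and without mouse 2 it was -0.29 (adjusted p = 0.116). With the epithelium, small intestine, and B cell markers as a covariate it was -0.04, -0.06, and -0.09. Its 3′ neighbour Usp37 lies on the opposite strand and shares 28.3% of the 50-base windows of Vil1, but averaged 54.1 CPM with 0% RPS, far below Vil1. Relative to Vil1, Alpi went from 0.0703 ± 0.0119 with 0% RPS to 0.0471 ± 0.0101 with 10% RPS, and Mep1b from 0.0804 ± 0.0158 to 0.156 ± 0.0354, as descriptions of CPM ratios.

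**Figure D4:**
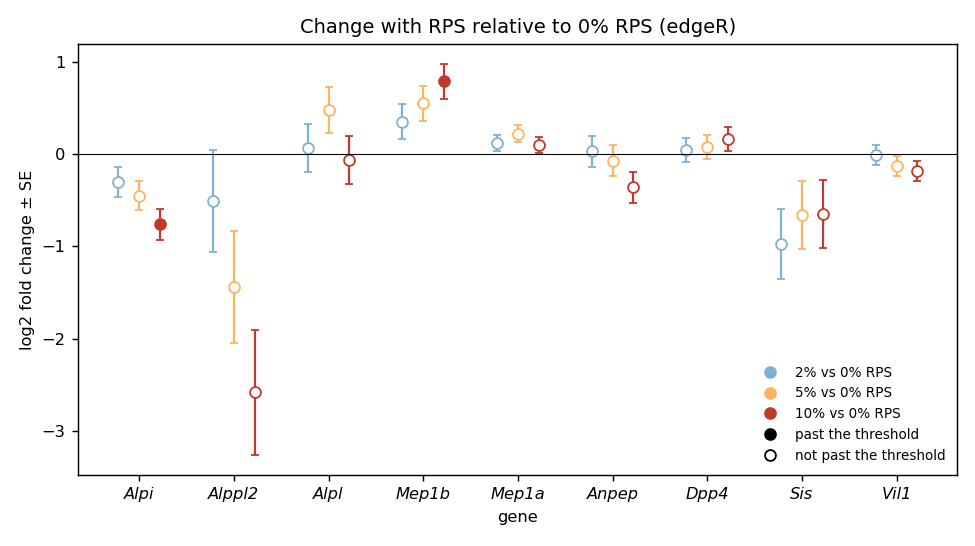
Log2 fold change ± SE of the 9 tested genes with 2, 5, and 10% RPS relative to 0% RPS (edgeR), with filled points past the threshold. Alpi and Mep1b with 10% RPS are the filled points, and Alppl2 has the widest error bars of the 9.

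Marker genes of the cell types in the cecal wall were set beside these genes. Among all tested genes, 19.5% had an unadjusted p under 0.05 with 10% RPS. The mice fed 0 and 10% RPS did not overlap for 1.68% (higher) and 3.2% (lower) of them. Of 6 tested markers of large intestine absorptive cells, 1 passed the threshold with 10% RPS by edgeR, and 2 had an unadjusted p under 0.05 with a higher and 3 with a lower level. The chloride exchanger Slc26a3 was upregulated, from 1202 ± 167 to 1833 ± 412 CPM (log2 fold change 0.61, SE 0.16, adjusted p = 0.0487), and its mice did not overlap between these diets. Slc9a3, the sodium-proton exchanger, was at -1.05 (SE 0.29, adjusted p = 0.0671) and was called by DESeq2 along with Slc26a3. Aqp8 was at -0.58 (SE 0.19, adjusted p = 0.114), with every mouse fed 10% RPS below every mouse fed 0% RPS, and Car1 was at -0.43 (SE 0.14, adjusted p = 0.0956). Car4, another carbonic anhydrase, was at 0.45 (SE 0.15, adjusted p = 0.114). The summed level of the 7 listed markers, most of it Car1, was 28292 to 31967 CPM per mouse with 0% RPS and 18441 to 30248 CPM with 10% RPS, whereas their mean log2 level was 8.35 ± 0.05 and 8.23 ± 0.09, and their part in the values of Alpi and Mep1b was not tested. Within diets, the mean log2 level of this list had a correlation of 0.52 with Mep1b and of -0.01 with Alpi over the 20 mice, as a description.

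All 6 epithelial markers (Epcam, Cdh1, Krt8, Krt18, Krt19, and Cldn7) were lower with 10% RPS, with a median log2 fold change of -0.18 against 0.0 for all tested genes; 0 passed the threshold by edgeR or DESeq2 and 3 had an unadjusted p under 0.05. Their summed level was 8903 to 12214 CPM per mouse with 0% RPS and 7992 to 10622 CPM with 10% RPS. All 5 smooth muscle markers were higher, with a median of 0.52, 0 past the threshold by edgeR, 1 (Cnn1) past it by DESeq2, and 3 with an unadjusted p under 0.05, and their sum went from 2196 to 5330.1 CPM per mouse to 3612 to 5688 CPM. Of 10 tested small intestine enterocyte markers 7 were lower (median -0.18, 0 past the threshold by edgeR, 1 higher and 1 lower with an unadjusted p under 0.05), and their mean log2 level was 2.06 ± 0.1 with 0% and 1.79 ± 0.21 with 10% RPS. Slc10a2 was at 0.90 (SE 0.25, adjusted p = 0.0641), with every mouse fed 10% RPS above every mouse fed 0% RPS, and was the 1 gene of this list that DESeq2 called. Of 5 fibroblast markers 4 were higher (median 0.28, 0 past the threshold by edgeR or DESeq2, 2 higher and 1 lower with an unadjusted p under 0.05), with a sum of 302 to 423 CPM per mouse with 0% RPS and 372 to 604 CPM with 10% RPS. Of 5 endothelial markers 4 were lower (median -0.31, 0 past the threshold by edgeR or DESeq2, 2 with an unadjusted p under 0.05), with sums of 110 to 149 and 98.2 to 139.7 CPM. The part of these 2 lists was not tested.

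When the mean of the epithelial markers was a covariate, the log2 fold change with 10% RPS was -0.66 for Alpi (adjusted p = 0.151) and 0.74 for Mep1b (adjusted p = 0.184), and 4 of all tested genes passed. With the smooth muscle markers it was -0.79 (adjusted p = 0.0715) and 0.86 (adjusted p = 0.0947), and 2 of all tested genes passed. With the small intestine markers it was -0.59 (adjusted p = 0.17) and 0.86 (adjusted p = 0.136), and 11 passed. Both genes kept their direction in these 3 fits, and neither kept its call. Over these fits and one with the B cell markers, the log2 fold change with 10% RPS was -0.53 to -0.42 for Anpep, -0.01 to 0.29 for Dpp4, and 0.03 to 0.14 for Mep1a.

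B cell markers differed widely from mouse to mouse. All 5 were higher with 10% RPS (median log2 fold change 1.9, 0 past the threshold by edgeR or DESeq2, 0 with an unadjusted p under 0.05), and their sum ranged from 4.68 to 178 CPM with 0% RPS and from 12.9 to 239 CPM with 10% RPS. With these markers as a covariate Alpi and Mep1b still passed, at -0.88 (adjusted p = 0.0301) and 0.93 (adjusted p = 0.0365). Of the 5 osteoblast markers, relevant to Alpl, Bglap (0.0576 CPM), Bglap2 (0.0407 CPM), Sp7 (0.0437 CPM), and Ibsp (0.0544 CPM) were near 0 with 0% RPS, whereas Runx2, a transcription factor also found outside bone, was at 3.39 ± 0.869 CPM.

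**Figure D5:**
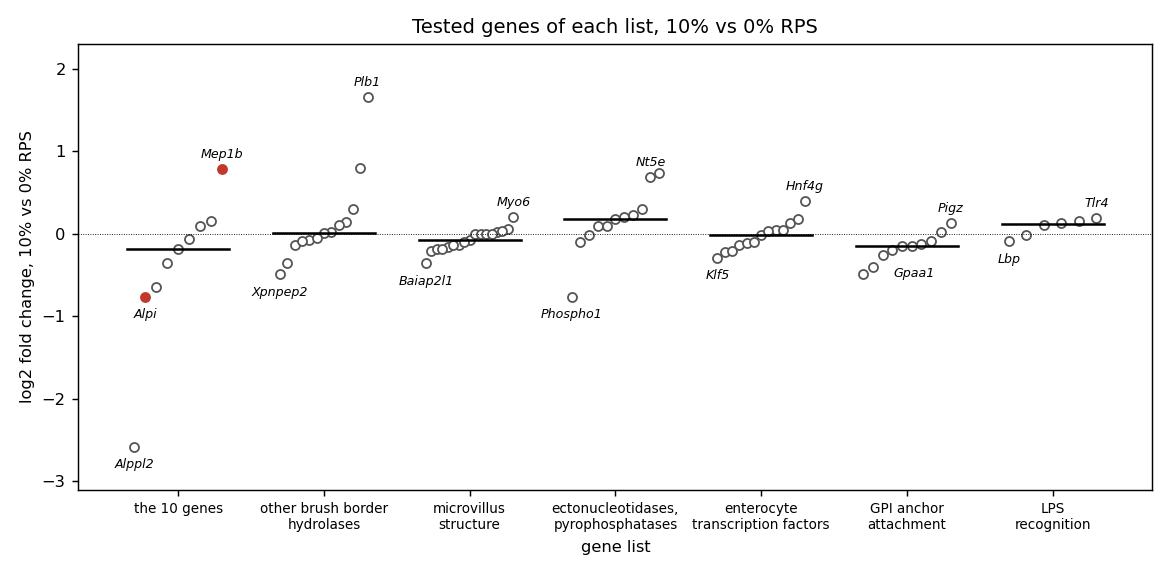
Log2 fold change with 10% relative to 0% RPS for the tested genes of 7 lists, 1 point per gene, with a line at each list's median and filled red points past the threshold (edgeR). Alpi and Mep1b are filled, and the medians of the other lists lie between -0.15 and 0.18.

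The enzymes and structures that surround these genes were then examined as lists. Each count at an unadjusted p under 0.05 stands beside 19.5% of all tested genes. Of 13 tested brush border hydrolases outside the set, 0 passed the threshold with 10% RPS by edgeR, 3 had an unadjusted p under 0.05 with a higher and 2 with a lower level, and the median log2 fold change was 0.01. Plb1, a brush border phospholipase, came nearest, at 1.39 ± 0.876 CPM with 0% and 4.34 ± 1.87 CPM with 10% RPS (log2 fold change 1.66, SE 0.44, adjusted p = 0.0555), and it was the 1 gene of this list that DESeq2 called. The slope of Plb1 over the 4 diets passed, at 0.155 per percent of RPS (SE 0.04, adjusted p = 0.0488, edgeR). Its mice did not overlap between 0 and 10% RPS, as for 1.68% of tested genes in this direction. Xpnpep2, an aminopeptidase that cuts before proline, had the lowest p of the genes with a lower level (log2 fold change -0.49, SE 0.21, adjusted p = 0.201). Lct, the lactase gene, had at most 10 counts in any mouse and was not tested.

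Genes of microvillus structure gave no call. Of 17 tested for the actin core, the myosins, and the links between microvilli, 0 passed by edgeR or DESeq2, 2 had an unadjusted p under 0.05 (both lower), and the median was -0.07. Baiap2l1, a membrane-bending protein, was at -0.36 (SE 0.15, adjusted p = 0.201), and Myo6, a minus-end directed myosin, at 0.20 (SE 0.11, adjusted p = 0.312).

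Enzymes that share substrates with alkaline phosphatase gave no edgeR call either. Of 11 tested ectonucleotidases and pyrophosphatases, 0 passed, 3 had an unadjusted p under 0.05 with a higher and 1 with a lower level, and the median was 0.18. Nt5e (CD73), which removes the last phosphate from AMP, was at 24.2 ± 6.38 CPM with 0% and 38.9 ± 13.2 CPM with 10% RPS (log2 fold change 0.69, SE 0.21, adjusted p = 0.0792), and DESeq2 called it as the 1 gene of this list. Phospho1, a phosphatase of phosphocholine, was at -0.76 (SE 0.25, adjusted p = 0.113).

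Transcription factors of enterocytes ranged with 0% RPS from Hnf4a at 1073 CPM and Cdx2 at 403 CPM to Gata5 at 1.94 CPM and Gata4 at 0.248 CPM, the last not tested. Of 13 tested, 0 passed by edgeR or DESeq2, 1 had an unadjusted p under 0.05 with a higher and 2 with a lower level, and the median was -0.01. Klf5 went from 404 ± 24.6 to 330.4 ± 29.2 CPM (log2 fold change -0.29, SE 0.08, adjusted p = 0.069), and Hnf4g from 14.6 ± 2.91 to 19.2 ± 6.57 CPM (log2 fold change 0.40, SE 0.18, adjusted p = 0.245).

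Alkaline phosphatases reach the membrane through the GPI anchor pathway. Of 10 tested genes of anchor attachment and remodelling, 8 had a lower level with 10% RPS, 0 passed by edgeR or DESeq2, 2 had an unadjusted p under 0.05 (both lower), and the median was -0.15. Gpaa1, a subunit of the transamidase that joins anchor and protein, was at 58.8 ± 3.17 CPM with 0% and 49.1 ± 5.25 CPM with 10% RPS (log2 fold change -0.26, SE 0.08, adjusted p = 0.0717). Pigz, a mannosyltransferase, was at 0.13 (SE 0.25, adjusted p = 0.819).

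Receptors and enzymes that handle LPS, a substrate of intestinal alkaline phosphatase, did not differ past the threshold. Of 6 tested, 0 passed by edgeR or DESeq2 and 0 had an unadjusted p under 0.05. Tlr4, the LPS receptor, was at 0.19 (SE 0.18, adjusted p = 0.6), and Lbp, the LPS-binding protein, at -0.09 (SE 0.24, adjusted p = 0.883).

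Finally, the genes whose levels were most like those of each enzyme from mouse to mouse were found. For this the diet means were subtracted from log2 CPM, and Pearson correlations were taken over the 20 mice with 13577 genes of at least 1 CPM, as a description, since mice also differ in depth and tissue composition. Mep1b was most like Slc13a2, the sodium-dependent citrate and succinate transporter of the brush border (r = 0.91), followed by Hps5, a subunit of a lysosome trafficking complex (r = 0.86), and Casp4, the caspase activated by intracellular LPS (r = 0.84). Slc13a2 (log2 fold change 0.88, SE 0.20, adjusted p = 0.0289) and Casp4 (1.0, SE 0.19, adjusted p = 0.0238) were themselves upregulated with 10% RPS, and Hps5 was not past the threshold (0.37, SE 0.11, adjusted p = 0.0806).

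Alpi was most like Larp6, an RNA-binding protein (r = 0.83), Otub1, a deubiquitinase (r = 0.83), and Aprt, an adenine salvage enzyme (r = 0.82), of which 0 passed with 10% RPS (adjusted p of 0.204 to 0.856). Alppl2, at its few counts, was most like Ccl9 (r = 0.80) and the ribosomal protein genes Rplp0 and Rpl19 (both r = 0.79). The most alike gene of Vil1 was Car1 (r = 0.92), that of Mep1a was Glrx, a glutaredoxin (r = 0.89), and that of Alpl was the transmembrane mucin Muc13 (r = 0.81). Anpep was most like Tnrc6c (r = 0.91), Dpp4 most like Thrap3 (r = 0.87), and Sis most like Pcsk6 (r = 0.82). With the mean log2 level of the epithelial markers as a score, Vil1 had the highest within-diet correlation of the 9 genes (0.72) and Dpp4 the lowest (-0.68). Alpi (0.34) and Mep1b (-0.15) lay between.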

How the data were processed

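Cecum RNA of 20 mice, 5 on each diet, was sequenced from stranded mRNA libraries as single reads of 50 bases. The authors trimmed low-quality bases, mapped the reads to GRCm39 with CLC Genomics Workbench 20.01, and deposited raw counts per gene, which are whole numbers with no normalization. The annotation release and the strand setting are not given in the sources used here. Names and coordinates came from GENCODE release 39 (19827 of 19887 identifiers matched).

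The members and lists were chosen with earlier results of these data known. Genes were filtered with filterByExpr (minimum count 10, minimum total 15), scaled by TMM, and fitted over all mice by edgeR 4.0.16 in R 4.3.3, with two-sided p-values adjusted over 15348 genes. Standard errors came from the F statistic, intervals are 95%, and the slope had no fold change threshold. Of each pathway list the genes past the threshold, or else the lowest p in each direction, were named, and of each enzyme the 3 most alike genes. Alternatives used DESeq2 1.42.0, sva 3.50.0, other filters, marker covariates, and each mouse left out. A floor of 3 counts was 0.2 CPM in the smallest library and covers counting error only.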

Additional observations from a re-analysis of the deposited data

Results flagged for a closer look

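In 36 groups of 5 mice (9 genes in 4 diets), 4 groups had 1 mouse set apart from the others by more than Dixon's critical value of 0.71 of the range. Chance flags about 1 in 20 groups. Alppl2 was at 0.317 CPM in mouse 3 on 5% RPS, against 0.0471 to 0.0944 CPM in the other 4 mice, a value of 5 counts in the smallest library. Anpep was at 26.8 CPM in mouse 4 on 5% RPS, against 19.1 to 21.3 CPM. Dpp4 was at 28.2 CPM in mouse 1 on 10% RPS, against at most 22.9 CPM in the others. Vil1 was at 1597 CPM in mouse 2 on 10% RPS, against 1057 to 1198 CPM.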

How the results depend on the processing

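With 10% RPS, 2 genes of the set passed the threshold, and this number did not change with DESeq2's size factors or Wald test, other count filters, no robust step, no fold change threshold, only the mice compared, a surrogate variable (there Alpi and Alppl2), or the B cell covariate. It was 0 with the epithelium, small intestine, or smooth muscle covariate (the last chosen after seeing the data, as was the B cell covariate) and with glmTreat against a fold change of 1.5, which left 0 of all genes. The cause was not tested. With each mouse left out in turn it was 0 to 3, while 14 to 344 of all genes passed. The 3 slopes past the threshold became 1 (Alpi) without a filter on low counts, 0 with the same 3 covariates or with only the 3 RPS diets, and 0 to 3 with each mouse left out. Among the alternatives whose slopes were compared, the call was lost in 4 of 11 for Alpi, 5 of 8 for Alppl2, and 6 of 11 for Mep1b. The counts with 2 and 5% RPS, and between 10 and 5% RPS, were 0 in every alternative run. Alpi and Mep1b kept their direction in every alternative. Directions near 0 did not hold. With the epithelium covariate Alpl with 10% RPS became 0.14, Dpp4 became -0.01, -0.07, and -0.02 (10, 5, and 2% RPS), and Vil1 became 0.01 (5%) and 0.04 (2%). With 2% RPS, the small intestine covariate gave -0.01 for Alpl, -0.03 for Anpep, and 0.05 for Vil1, the smooth muscle covariate gave -0.10, -0.05, and 0.01, and only the mice compared gave 0.00 for Vil1. With 5% RPS Alpl became -0.03 with the smooth muscle covariate. Leaving out mice turned Alpl with 10% (-0.24 to 0.08) and 2% RPS (-0.05 to 0.20), Anpep with 5% (-0.17 to 0.02) and 2% RPS (-0.21 to 0.14), Dpp4 with 2% RPS (-0.03 to 0.15), and Vil1 with 2% RPS (-0.06 to 0.05). No paired analysis was possible because no mouse number in the labels occurs on more than 1 diet. Depth limits Akp3, Alppl2, and Sis, which had at most 4, 13, and 28 counts per mouse.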
